A study of Mus musculus with 6 samples.

Results

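Endothelial- and mesothelial-to-mesenchymal transition genes were examined as a set of 10, chosen by symbol from the 22183 genes of the deposited count table: Snai1, Snai2, Twist1, Zeb1, Zeb2, Acta2, Tagln, Vim, Cdh2 and S100a4. All 10 were found, and 9 of them had enough reads to be tested, Twist1 being the exception. The libraries came from peritoneal endothelial cells (ECs) of 6 wild-type male C57BL/6J mice, 3 that had daily saline injected into the peritoneal cavity for 6 weeks and 3 that had a high-glucose peritoneal dialysis (PD) fluid over the same time. No transgene or deletion was carried by either group. The labels describe magnetic sorting of CD31+ cells, and the study's methods a fluorescence sort of CD31+ CD45- cells from the mesentery. The comparison asks how far transcripts of this program differed between the PD mice and the saline mice.

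In a mesenchymal transition, an endothelial or mesothelial cell loosens its junctions and takes on features of a fibroblast or myofibroblast. SNAI1, SNAI2, ZEB1 and ZEB2 are zinc finger repressors that bind E-box sequences in the promoters of junction genes such as those of the cadherins, and TWIST1 is a basic helix-loop-helix factor that acts with them. Smooth muscle actin (Acta2) and transgelin (Tagln) are contractile proteins, vimentin (Vim) is an intermediate filament, N-cadherin (Cdh2) replaces other cadherins at the cell surface, and S100A4 is a calcium-binding protein also known as fibroblast-specific protein. None of these genes belongs to transitioning cells alone, since smooth muscle cells, pericytes, fibroblasts and leukocytes express several of them at rest. Peritoneal fibrosis under PD fluid is a setting in which both transitions have been proposed.

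For the 2 tested members with the largest changes, regulatory sequence is shown from RefSeq on GRCm38.p6, 5′ to 3′ on the coding strand. For Snai1 these are the 250 bases before its start site, at chr2:167537945-167538194 (+), with the E-box CACCTG in capitals. For Acta2, whose window is covered in part by an annotated exon of a longer GENCODE transcript, only 30 bases around each of its CArG boxes, the element of serum response factor, are shown. They lie at chr19:34255438-34255467 (-) and chr19:34255388-34255417 (-), with the boxes in capitals.
Snai1: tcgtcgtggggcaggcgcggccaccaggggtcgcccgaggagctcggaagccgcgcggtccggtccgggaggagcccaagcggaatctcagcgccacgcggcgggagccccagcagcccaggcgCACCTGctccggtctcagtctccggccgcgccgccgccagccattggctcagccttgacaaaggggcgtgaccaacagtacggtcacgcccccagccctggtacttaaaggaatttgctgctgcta
Acta2 box 1: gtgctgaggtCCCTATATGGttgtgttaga
Acta2 box 2: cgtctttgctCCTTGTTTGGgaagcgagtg

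The E-box of Snai1 began 126 bases before the start site, and the CArG boxes of Acta2 began 84 and 34 bases before it. The RefSeq table held 9 promoters for 6 of the members. CACCTG, read on both strands, was in 1 of these 9, against 17.2% of all 32851 promoters in the table. The strict CArG box, CC and GG around 6 bases that are all A or T, was in none of the 9 and in 1.47% of all promoters. The form in which at most 1 inner base is G or C, chosen after the sequences were seen and the one marked in Acta2, was in 1 of the 9 and in 8.59% of all promoters. These matches describe letters in the window and nothing about binding.

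Total counts ran from 21973426 to 26374292 per library, and all CPM values (counts scaled to a common library size) below rest on edgeR's TMM scaling. CD31 (Pecam1) was at 458 to 491 CPM in saline mice and 504 to 519 CPM in PD mice. CD45 (Ptprc), which marks all leukocytes, was above it in both groups, at 2295 to 2520 CPM in saline mice and 1405 to 1531 CPM in PD mice. The libraries therefore held leukocyte transcripts beside endothelial ones. In such bulk samples, more cells of a type and more RNA per cell cannot be told apart. Genes of pancreatic acinar cells were near absent in saline mice and abundant in PD mice, the 12 acinar markers together reaching 2.66 to 6.50 CPM and 8054 to 9020 CPM, respectively.

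In PD mice, 8 of the 9 tested members were higher and none was lower. The call rests on the quasi-likelihood test of edgeR, Benjamini-Hochberg adjusted over all genes, with a threshold of 0.05. By this rule 58.9% of the 14005 tested genes differed, 31.1% being higher and 27.8% lower in PD mice. The median log2 fold change of the 9 members was 1.02, against 0.02 over all tested genes. A rise of at least 2-fold was seen in 5 members (Snai1, Acta2, S100a4, Tagln and Cdh2), against 15.4% of all genes. In 8 tested members every PD mouse lay above every saline mouse, which held for 34% of all genes (the opposite order held for 31.6%), and in Zeb1 the groups overlapped. Errors of log2 fold changes are standard errors.

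**Figure D1:**
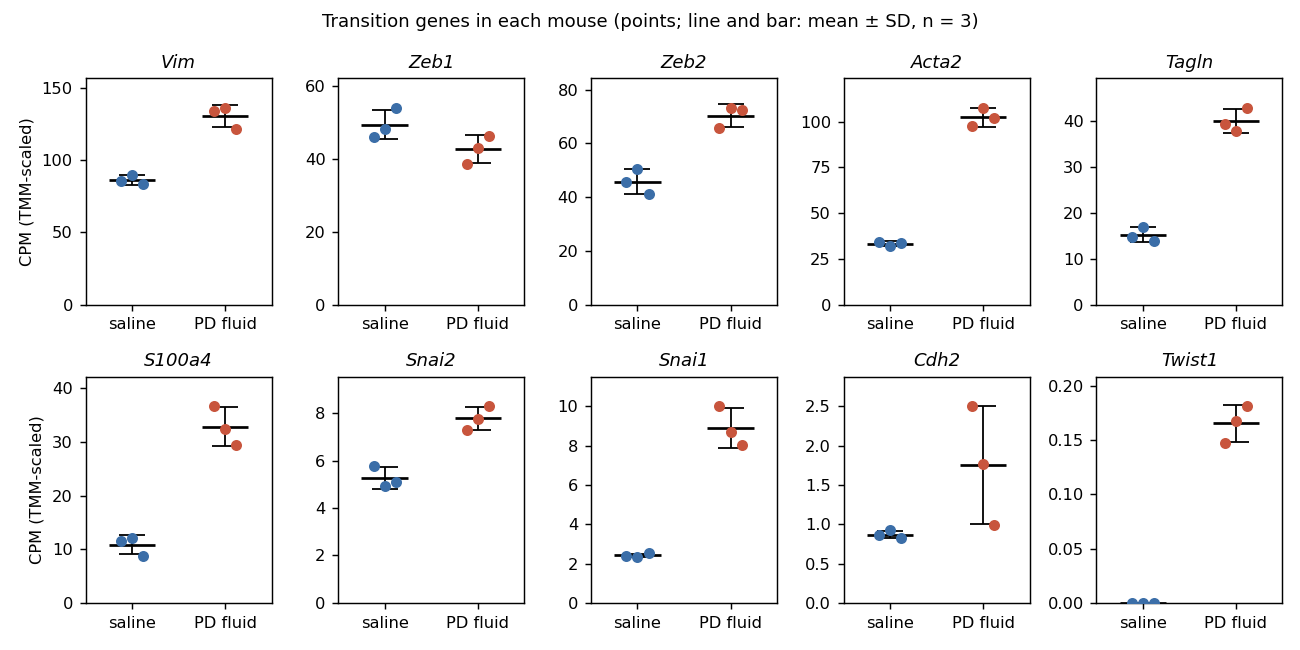
TMM-scaled CPM (vertical axes, each from 0) of the 10 transition genes in each of the 3 saline and 3 PD mice, as points, with the mean and SD as line and bar. Groups are apart in every panel but that of Zeb1, and the PD mice of Cdh2 spread from 1.00 to 2.50 CPM.

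Among the transcription factors, Snai1 (ENSMUSG00000042821; GRCm38 chromosome 2, 167538195 to 167542814) had the largest change of the 9 tested members. It was at 2.38, 2.35 and 2.53 CPM in the saline mice and at 10.01, 8.68 and 8.02 CPM in the PD mice. The saline mice were close to each other, and the lowest PD mouse was more than 3-fold above them. This was a change of 1.88 ± 0.17 on the log2 scale (edgeR, adjusted p = 5.05e-06), a 3.68-fold rise. Without each mouse in turn it stayed between 1.78 and 1.95.

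Its paralog Snai2 (ENSMUSG00000022676; chromosome 16, 14705852 to 14709385), also called Slug, moved less. It was at 5.78, 4.93 and 5.09 CPM in the saline mice and at 7.28, 7.76 and 8.29 CPM in the PD mice. The groups did not overlap, and the rise was 1.47-fold, or 0.56 ± 0.15 on the log2 scale (edgeR, adjusted p = 0.00833).

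Zeb2, which encodes a repressor that macrophages also use, rose. Zeb2 (ENSMUSG00000026872; chromosome 2, 44983632 to 45117395) was at 45.6, 50.5 and 41.2 CPM in the saline mice and at 65.6, 73.2 and 72.3 CPM in the PD mice. The groups were apart, with a rise of 0.62 ± 0.09 in log2 terms (edgeR, adjusted p = 0.000163). An antisense gene, Zeb2os, overlaps Zeb2 in the annotation, and the use of strand in the counting is not stated, so reads of this pair could be joined.

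Zeb1 (ENSMUSG00000024238) was at 46.0, 48.2 and 53.9 CPM in the saline mice and at 38.6, 42.9 and 46.2 CPM in the PD mice. The highest PD mouse lay within the saline range. Its difference of -0.21 ± 0.09 on the log2 scale did not pass the threshold (edgeR, adjusted p = 0.0691), and, of the fits that leave out 1 mouse, it passed only in the one without PD mouse 3 (edgeR, adjusted p = 0.0435).

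Twist1 (ENSMUSG00000035799; chromosome 12, 33957671 to 33959829) was near the limit of detection, with 0 counts in every saline mouse and 4 counts in every PD mouse. Taken over the group, and with the 3 counts that a count of 0 allows in saline mice, it was 3.91-fold higher in PD mice. The error of the PD counts is left out of this value, so it is not a firm lower limit. It did not pass the filter on low counts. Without the filter its adjusted p was 0.0271 in edgeR, and it was 0.0617 in DESeq2.

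Both contractile genes rose in all PD mice. Acta2 (ENSMUSG00000035783; chromosome 19, 34241090 to 34255590) was at 34.4, 32.1 and 33.5 CPM in the saline mice and at 97.5, 107 and 102 CPM in the PD mice. The saline mice were close to each other, the PD mice spread more, and the groups were far apart. They differed by 1.62 ± 0.07 on the log2 scale (edgeR, adjusted p = 2.02e-08), a 3.06-fold rise with the smallest adjusted p of the members.

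Tagln (ENSMUSG00000032085; chromosome 9, 45929619 to 45936058) was at 14.8, 16.9 and 13.7 CPM in the saline mice and at 39.2, 37.8 and 42.8 CPM in the PD mice. All PD mice were above all saline mice, by 1.40 ± 0.10 on the log2 scale (edgeR, adjusted p = 1.10e-06). Pcsk7, a protease gene on the opposite strand, overlaps Tagln in the annotation. It rose as well, by 0.54 ± 0.09 (edgeR, adjusted p = 0.000372), a smaller change than that of Tagln.

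Of the structural and surface markers, vimentin was the member with the most reads. Vim (ENSMUSG00000026728; chromosome 2, 13573927 to 13582826) was at 85.9, 90.1 and 83.5 CPM in the saline mice and at 134, 136 and 122 CPM in the PD mice. The groups were apart, by 0.60 ± 0.07 on the log2 scale (edgeR, adjusted p = 3.62e-05). S100a4 (ENSMUSG00000001020; chromosome 3, 90603771 to 90606045) changed more, from 11.6, 12.1 and 8.82 CPM in the saline mice to 36.7, 32.5 and 29.5 CPM in the PD mice. The difference was 1.60 ± 0.14 in log2 terms (edgeR, adjusted p = 3.20e-06).

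The rise of N-cadherin was the least certain of those called. Cdh2 (ENSMUSG00000024304) had 22, 20 and 20 counts in the saline mice and 68, 42 and 22 counts in the PD mice, or 0.86, 0.92 and 0.83 CPM against 2.50, 1.76 and 1.00 CPM. PD mouse 1 was high and PD mouse 3 was barely above the saline mice. On the log2 scale they differed by 1.02 ± 0.38 (edgeR, adjusted p = 0.0367). The call was lost with DESeq2 (adjusted p = 0.0697) and when any mouse but PD mouse 3 was left out, with 0.67 as the lowest log2 fold change, reached without PD mouse 1.

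Annotated genes also overlap S100a4, Zeb1 and, antisense, Cdh2, and Acta2 has close paralogs among the actin genes, so that reads of these members could be shared with others.

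Compared per length, on the FPKM scale of the deposited table, the order of the members differed between the groups. In saline mice Vim was highest, at 39.8 ± 1.27 FPKM (SD, n = 3 mice), followed by S100a4 at 21.7 ± 3.44 and Acta2 at 18.8 ± 1.52, which overlapped. In PD mice S100a4 (66.4 ± 9.03), Vim (60.6 ± 5.11) and Acta2 (56.7 ± 0.80) were the 3 highest, each overlapping with the next. Zeb1 lay above Zeb2 in saline mice, at 16.3 ± 1.17 and 12.02 ± 1.91 FPKM, and below it in PD mice, at 14.2 ± 2.53 and 19.9 ± 0.78 FPKM. Snai1 likewise lay below Snai2 in saline mice, at 1.49 ± 0.07 and 2.60 ± 0.23 FPKM, and above it in PD mice, at 5.52 ± 0.78 and 3.86 ± 0.15 FPKM. Cdh2 and Twist1 were the lowest in both groups.

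Ratios of a pair of members within each library do not depend on how libraries are scaled. For 4 pairs, each ratio was put to an exact permutation test over the mice, two-sided, in which 3 mice against 3 cannot reach a p below 0.1. The count of Snai2 was 2.01 to 2.41 times that of Snai1 in saline mice and 0.73 to 1.03 times in PD mice. The log2 ratio differed by -1.30 (exact permutation p = 0.1, 0.133 after adjustment over the 4 pairs). Zeb2 was at 0.77 to 1.05 times the count of Zeb1 in saline mice and at 1.56 to 1.71 times in PD mice, a log2 difference of 0.84 with the same exact permutation p-values. Acta2 was at 0.36 to 0.40 times the count of Vim in saline mice and at 0.73 to 0.84 times in PD mice, a log2 difference of 1.02 (exact permutation p = 0.1, 0.133 after adjustment). The ratio of Tagln to Acta2 was 0.41 to 0.53 in saline mice and 0.35 to 0.42 in PD mice, and here the groups overlapped (log2 difference -0.22, exact permutation p = 0.2, 0.2 after adjustment).

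**Figure D2:**
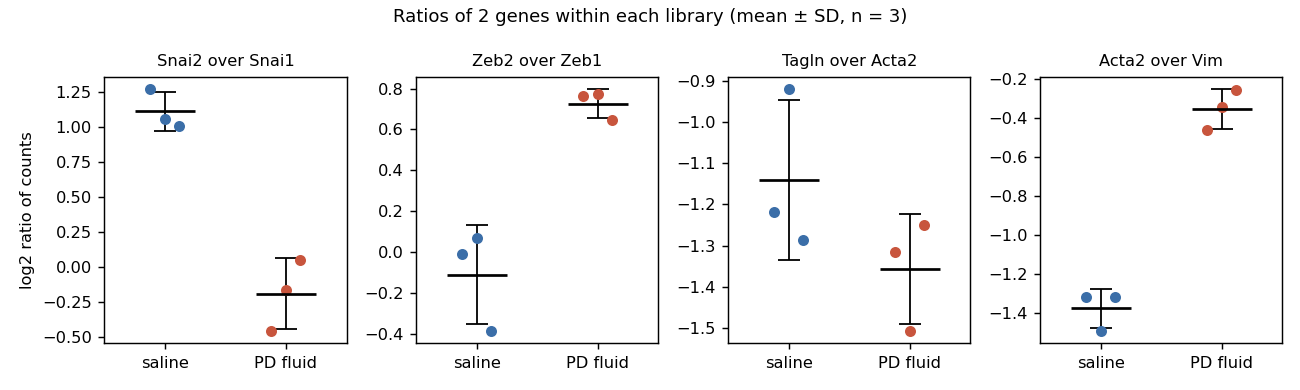
Log2 ratio of the counts of a pair of members within each library (vertical axes, which do not start at 0), for 3 saline and 3 PD mice as points, with mean and SD. The groups are apart for Snai2 over Snai1, Zeb2 over Zeb1 and Acta2 over Vim, and overlap for Tagln over Acta2.

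The changes of the members were next set against 2 cell type scales. Each scale is the sum of the counts of its list, so the markers with the most reads weigh most. Both the endothelial and the fibroblast markers rose in PD mice, so scaling the libraries to either lowers most genes, and the median of all genes then lay at -0.66 and -1.72 on the log2 scale. Scaled to the 12 endothelial markers, 4 members were higher in PD mice, against 12.4% of all genes, and 1 was lower, against 63.2%. Snai1 (1.20), Acta2 (0.94), S100a4 (0.92) and Tagln (0.72) remained higher, and Zeb1 (-0.89) was the one called lower. Pecam1, which did not pass with TMM scaling (0.13), held 458 to 491 of the 1074 to 1084 CPM of the endothelial list in saline mice. On its own scale that list had a median of 0.28, so the scale does not hold all endothelial markers level. Scaled to the 12 fibroblast markers, none was higher, against 2.96% of all genes, and 5 were lower, against 86.5%. On that scale Snai1 differed by 0.15 (edgeR, adjusted p = 0.468), Acta2 of -0.12 (edgeR, adjusted p = 0.192) and S100a4 of -0.13 (edgeR, adjusted p = 0.421). Tagln (-0.34), Zeb2 (-1.12), Vim (-1.14), Snai2 (-1.18) and Zeb1 (-1.95) were lower. The fibroblast list summed to 422 to 455 CPM in saline mice, with means of 258 CPM for Gsn and 89.6 CPM for Cd34. Both rose least of the list, by 1.01 and 1.07 with TMM scaling. On its own scale the list had a median of 0.74, so that scale does not hold all fibroblast markers level.

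**Figure D3:**
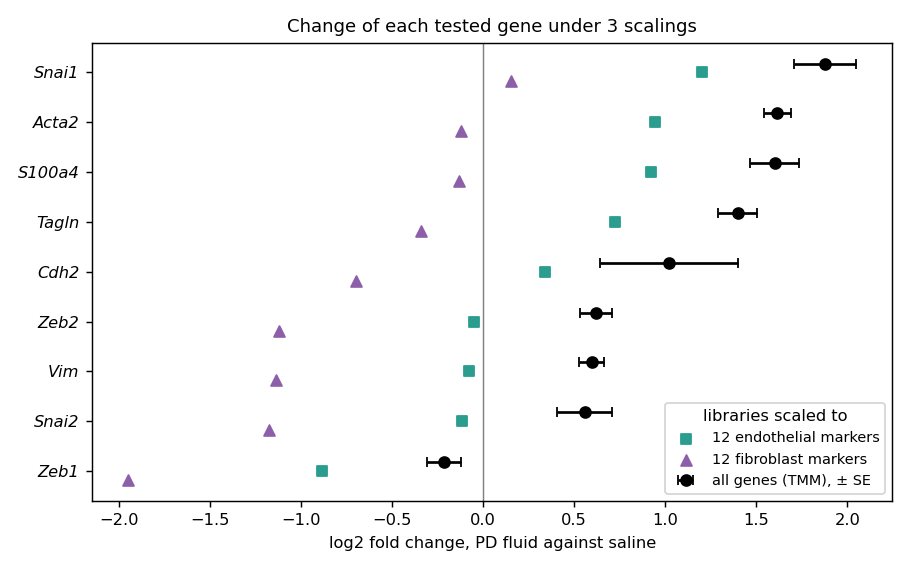
Log2 fold change of PD against saline mice (horizontal axis) for the 9 tested members, with libraries scaled by TMM (circles, bars are standard errors), to 12 endothelial markers (squares) or to 12 fibroblast markers (triangles). Rescaling moves all genes by a nearly equal step, so the order of the members being the same on each scale follows from the method. Only Snai1 is above 0 with fibroblast scaling.

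Genes of TGF-beta and BMP signalling, repressors of the pathway among them, were mostly higher in PD mice with TMM scaling. Values of this list and those below are on that scale unless another is named. Of 30 such genes, all tested, 23 were higher and 2 lower, with a median log2 fold change of 0.79. That median was 0.11 with endothelial scaling and -0.94 with fibroblast scaling, against -0.66 and -1.72 over all genes. Ltbp2, of the latent TGF-beta binding protein family, rose most (1.84 ± 0.38). It had few reads, with 21, 14 and 22 counts in the saline mice and 100, 81 and 32 counts in the PD mice. The lower genes were Smad2, a receptor-activated transducer (-0.31 ± 0.07), and Skil, a repressor of the pathway (-0.26 ± 0.09).

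Of 15 other transcription factors of mesenchymal transition, 12 were tested, 6 were higher and none was lower, with a median of 0.57. That median was -0.10 with endothelial and -1.15 with fibroblast scaling. Sox9 (3.76 ± 0.71) rose from no more than 0.09 CPM in any saline mouse to 0.55 to 1.10 CPM in PD mice, so that its fold rests on few reads. Osr1 (2.29 ± 0.22) was the next. Tcf4 (-0.07 ± 0.06) and Tcf12 (-0.16 ± 0.09), which encode E-proteins that pair with TWIST1, did not pass the threshold.

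Beyond Acta2 and Tagln, 13 of 19 tested contractile and actin-bundle genes were higher and 1 was lower (median 1.04, or 0.36 with endothelial and -0.70 with fibroblast scaling). The smooth muscle genes Actg2 (2.97 ± 0.18) and Cnn1 (2.49 ± 0.20) led, while Cnn2, the calponin of non-muscle cells, was lower (-0.18 ± 0.06), and Mrtfb, a coactivator of serum response factor, did not pass (0.02 ± 0.08). Of 20 matrix and adhesion genes of mesenchymal cells, 18 were higher and none was lower (median 1.65, or 0.98 with endothelial and -0.08 with fibroblast scaling). The type I collagen genes Col1a1 (3.85 ± 0.25) and Col1a2 (3.40 ± 0.25) changed most. Postn (0.35 ± 0.12) rose least of those called, and Cdh11, the cadherin of fibroblasts, did not pass (-0.17 ± 0.10).

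Genes of the cells that enter a transition, epithelial and endothelial, were looked at next. Of 16 epithelial junction and splicing genes, 10 were tested, 7 were higher and none was lower, with a median of 2.16. It was 1.49 with endothelial and 0.43 with fibroblast scaling. The list also holds keratin genes, all of which were among the higher ones, and no splicing gene had enough reads to be tested. The median is therefore not that of junction genes alone. Cldn3 (3.82 ± 0.68), a tight junction gene at 0.12 CPM or less in saline mice, and the keratin gene Krt7 (3.71 ± 0.39) rose most. Cldn4 (0.34 ± 0.28) and Epcam (0.11 ± 0.18) did not pass. Of 12 endothelial markers, 11 were higher and none was lower (median 0.96). VE-cadherin (Cdh5), the junction cadherin of ECs, was at 16.5 to 21.9 CPM in saline mice and 32.2 to 34.0 CPM in PD mice (0.82 ± 0.11). Tie1 (1.65 ± 0.17) and Robo4 (1.55 ± 0.20) rose most, Tek (0.53 ± 0.07) rose less, and Pecam1 (0.13 ± 0.06) did not pass. With endothelial scaling Cdh5 differed by 0.14 (edgeR, adjusted p = 0.287). On that scale Tie1 (0.97) and Robo4 (0.87) stayed above 0, and Tek (-0.14) and Pecam1 (-0.54) lay below it.

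Markers of other cells that express the members moved as well. All 12 fibroblast markers were higher, their summed level rising from 422 to 455 CPM in saline mice to 1403 to 1493 CPM in PD mice. Lum (3.91 ± 0.18), Dcn (3.19 ± 0.08) and Pdgfra (2.35 ± 0.16) were among them, and Cd34 (1.07 ± 0.06) and Gsn (1.01 ± 0.07) rose least. All 9 tested smooth muscle markers, 6 of them also in the contractile list, were higher, with a summed level of 87.2 to 88.8 CPM in saline mice and 199 to 215 CPM in PD mice. Myh11, the myosin of smooth muscle, changed by 1.95 ± 0.13, and Pln, a regulator of the calcium pump, by 0.72 ± 0.20. Of 10 pericyte markers, 5 were higher and none was lower, and the sum went from 248 to 276 CPM to 297 to 336 CPM. Cspg4 (1.56 ± 0.48) and Pdgfrb (1.09 ± 0.18) rose most, Rgs5 rose by 0.26 ± 0.08, and Abcc9 (-0.25 ± 0.17) and Cox4i2 (-0.28 ± 0.34) did not pass.

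All 12 mesothelial markers, 3 of them keratin genes of the epithelial list, were higher, with sums of 34.9 to 40.7 CPM and 245 to 278 CPM. Msln was at 1.38 to 2.58 CPM in saline mice and 31.4 to 34.8 CPM in PD mice (3.92 ± 0.18). Bnc1 (3.95 ± 0.44) and Upk3b (3.06 ± 0.13) rose likewise, and Krt18 (2.45 ± 0.25) and Gpm6a (2.02 ± 0.10) least. The 12 macrophage and monocyte markers, which come from cells that also express Zeb2, Vim and S100a4, were all higher. Their sum went from 2690 to 2830 CPM to 11156 to 12062 CPM, with Cd14 (3.19 ± 0.07), Itgam (2.69 ± 0.13), Adgre1 (2.04 ± 0.06), Csf1r (1.77 ± 0.07), Cd68 (1.59 ± 0.07) and Timd4 (0.95 ± 0.10) as examples.

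Lymphocyte markers went the other way. Of 12 B and T lymphocyte markers, 10 were lower and none was higher, led by Cd79a (-1.21 ± 0.06), Cd79b (-1.21 ± 0.06) and Ms4a1 (-1.17 ± 0.08). The sum of the 12 went from 8083 to 8369 CPM in saline mice to 4465 to 4617 CPM in PD mice. That of the 12 endothelial markers was 1074 to 1084 CPM in saline mice and 1690 to 1777 CPM in PD mice. Cd3e (0.06 ± 0.08) and Il7r (0.07 ± 0.07) did not pass. Of 10 markers of all leukocytes, 8 were lower and 1, Laptm5 (0.31 ± 0.06), was higher. Ptprc (-0.69 ± 0.07), Cd53 (-0.52 ± 0.07) and Arhgdib (-0.77 ± 0.08) fell, and Itgb2 (0.12 ± 0.05) did not pass. All 12 acinar markers were higher, Cela2a (12.39 ± 0.23) and Cpa1 (12.11 ± 0.20) the most and Cela1 (7.55 ± 0.17) the least. None of the markers in these lists was at 0 in all 6 libraries. The part that these cell types had in the changes of the transition genes was not tested.

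**Figure D4:**
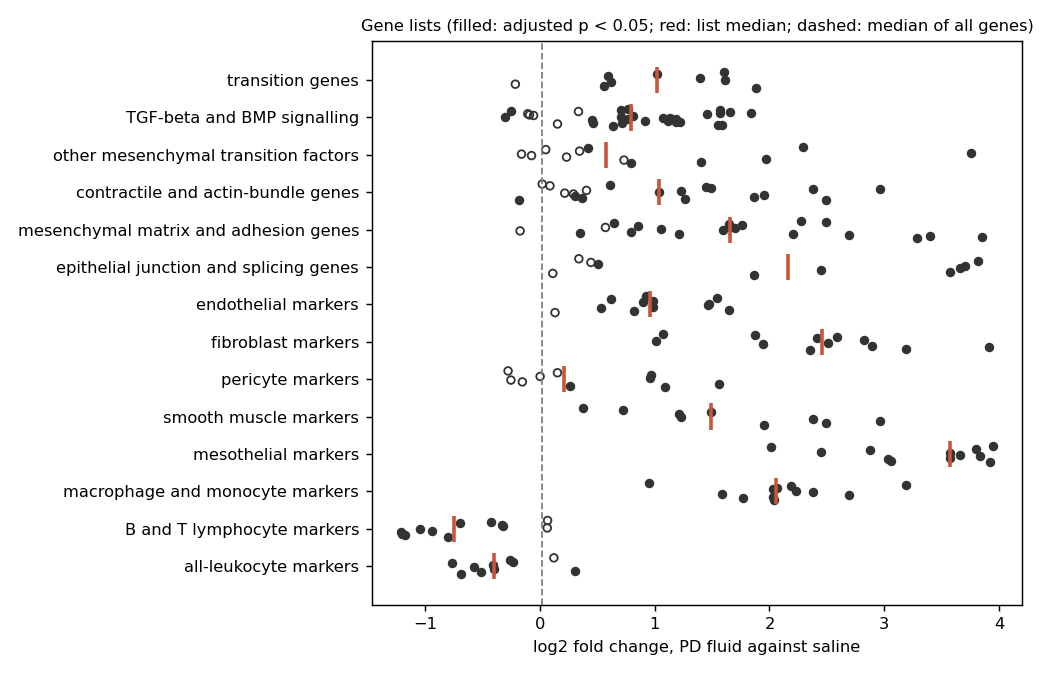
Log2 fold change of PD against saline mice (horizontal axis) for each tested gene (points, filled where the adjusted p is under 0.05) of the transition genes and of 13 other lists, the acinar markers being left out for their size. The red line is the median of a list and the dashed line that of all genes. The median of the transition genes, 1.02, is the value of Cdh2. It lies below that of the fibroblast (2.46), mesothelial (3.57), macrophage (2.05) and smooth muscle (1.49) markers. It is close to that of the contractile and actin-bundle genes (1.04) and of the endothelial markers (0.96).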

How the data were processed

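RNA sequencing libraries of 3 saline and 3 PD mice were analysed, grouped by the sample labels. One table was used, in which the authors gave, for 22183 genes, unnormalized read counts and FPKM values of each mouse. The submitters' processing notes list fastp 0.18.0, Bowtie2 2.2.8, HISAT2, StringTie 1.3.1 and RSEM, without their roles. The genome build and annotation are not given in the sources used here, so positions are those of GENCODE M21 on GRCm38, to which 22128 of the identifiers matched. All per-sample columns were matched, with 0 left over. The authors' group means, log2 ratio, p-value and FDR columns were not used.

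With R 4.3.3, counts were filtered by edgeR 4.0.16 (filterByExpr, 14005 genes kept), scaled by TMM and fitted with the quasi-likelihood test, with no covariate and a threshold of 0.05 after Benjamini-Hochberg adjustment over all genes. Standard errors come from the F statistic. The study names limma, without a design. FPKM served only to compare levels between genes, and, as an alternative, in limma 3.58.1 on log2(FPKM + 0.1). Other alternatives were DESeq2 1.42.0, limma-voom, RLE scaling, no filter, a 2-fold limit, the replicate number as a block, scaling to marker genes and leaving out each mouse. Ratios of pairs used counts plus 0.5 and scipy 1.17.1, with Python 3.11.15. The members and lists were chosen with earlier results of these data known. Genes named beside the members are the 2 highest and 2 lowest log2 fold changes of each list and the 2 markers that stand first in each cell type list, some of which are not reported here. Pcsk7 was named after its values were seen, for its overlap with Tagln. The test was tried on simulated counts over 5 random seeds. It gave no wrong sign there. Where each gene kept its own spread in those counts, the share of false calls was above the nominal level, so adjusted p-values close to the threshold are less certain than they read. Counting error alone sets the floor of 3 counts. The p-values of edgeR weigh the difference between groups against the spread between these mice, which is estimated in part from other genes. Exact permutation p-values rest on regrouping the mice.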

Additional observations from a re-analysis of the deposited data

How the results depend on the processing

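The count of higher members was 8 with RLE scaling, 9 without the filter (Twist1 being added) and 7 with DESeq2, limma-voom or limma on FPKM (an alternative chosen after seeing the data), each of which lost Cdh2. The cause was not tested. None was lower under these settings. With each mouse left out in turn, 7 to 8 members were higher and 0 to 1 lower (Zeb1, without PD mouse 3), while 6996 to 8018 genes passed in all, against 8246 with every mouse. A 2-fold limit left 2410 genes and 5 higher members. Scaling to the fibroblast markers gave 12533 genes, 0 higher and 5 lower members, and scaling to the endothelial markers 4 higher and 1 lower. The differences in pair ratios kept their direction with each mouse left out, from -1.42 to -1.17 for Snai2 over Snai1, 0.70 to 0.93 for Zeb2 over Zeb1, 0.96 to 1.07 for Acta2 over Vim and -0.29 to -0.11 for Tagln over Acta2.

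Same-numbered mice of the 2 groups did not deviate together (correlations of 0.19, 0.07 and -0.27), so the numbers do not pair them. With the replicate number as a block, 7909 genes passed and 7 members were higher, Cdh2 differing by 0.95 on the log2 scale (edgeR, adjusted p = 0.0616). The block result of the other members stayed on the same side of the threshold.

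Log2 fold changes of named genes that turned sign were, with endothelial scaling, those of Snai2 (-0.11), Zeb2 (-0.053), Vim (-0.080), Mrtfb (-0.65), Postn (-0.33), Cldn4 (-0.33), Epcam (-0.56), Tek (-0.14), Pecam1 (-0.54), Rgs5 (-0.41), Il7r (-0.61), Cd3e (-0.61), Laptm5 (-0.37), Itgb2 (-0.55) and Pcsk7 (-0.13). With fibroblast scaling they were those of Snai2 (-1.18), Zeb2 (-1.12), Acta2 (-0.12), Tagln (-0.34), Vim (-1.14), Cdh2 (-0.70), S100a4 (-0.13), Mrtfb (-1.72), Postn (-1.38), Cldn4 (-1.39), Epcam (-1.62), Tie1 (-0.075), Robo4 (-0.18), Tek (-1.20), Pecam1 (-1.61), Cdh5 (-0.91), Cd34 (-0.67), Gsn (-0.72), Cspg4 (-0.16), Pdgfrb (-0.64), Rgs5 (-1.48), Pln (-1.01), Cd68 (-0.15), Timd4 (-0.79), Il7r (-1.67), Cd3e (-1.67), Laptm5 (-1.43), Itgb2 (-1.61) and Pcsk7 (-1.19). Skil was at 0.0014 with limma on FPKM. With each mouse left out in turn, 4 genes near 0 turned sign, Mrtfb ranging from -0.034 to 0.078, Epcam from -0.036 to 0.22, Cox4i2 from -0.50 to 0.12 and Cd3e from -5.0e-05 to 0.15. Among the members, depth limits Twist1 and Cdh2, which had at most 4 and 68 counts in a library.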
